A study of Mus musculus with 6 samples.

Results

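The genes described here are 9 that encode cytokines, chemokines or a cytokine receptor component in Ba/F3 cells: Il23a, Mif, Cd74, Ccl3, Ccl4, Tgfb1, Tnf, Osm and Csf1. They are 9 of the 57010 Ensembl gene IDs in the deposited expression table, found by their GENCODE M21 symbols, and 8 of them were among the 12862 genes averaging 1 TPM or more, the level required for testing. TPM is transcript abundance scaled for transcript length and for each library's total. The 9 genes were chosen by their measured TPM levels and by the differences of those levels between the groups, so their values are given as a description with no p-value.

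The study compared 3 libraries of Ba/F3 cells overexpressing the TPR-FGFR1 fusion with 3 libraries of Ba/F3 cells carrying an empty vector, whose genotype is labelled WT. Ba/F3 is a mouse haematopoietic line that normally depends on interleukin-3 and is widely used to test oncogenic kinases. The fusion joins part of TPR, a nuclear pore protein that can dimerize, to the kinase FGFR1, a growth factor receptor. The fusion cells were made with a lentivirus and selected for 6 days in puromycin at 5 µg/ml. Selection of the empty vector cells, the presence of interleukin-3, clonality and the origin of the replicates from separate cultures are not described in the labels. Any p-value below thus reflects library-to-library spread alone, and that spread may be technical. The deposited TPM carry no read numbers, so depth is unknown. Mouse Fgfr1 stood at 0.70, 0.58 and 1.26 TPM in fusion libraries and at 0.02, 0.04 and 0.05 TPM in empty vector libraries. The species of the introduced sequence is not given in the labels.

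The cells are labelled as B lymphocytes. Of 12 B-lineage marker genes, 2 averaged 1 TPM or more and 10 did not. The 2 were Cd37, a tetraspanin gene, at 48.3 ± 11.6 TPM in fusion cells and 60.3 ± 1.91 TPM in empty vector cells, and Cd79b, a B cell receptor component gene, at 5.27 ± 1.57 TPM in fusion cells and 6.76 ± 0.375 TPM in empty vector cells (SD, n = 3 each). Cd79a, which encodes the partner of CD79B, lay between 0.09 and 0.14 TPM in fusion libraries and between 0.00 and 0.11 TPM in empty vector libraries. Of 8 progenitor marker genes, 6 averaged 1 TPM or more. Among them the transcription factor gene Gata2 was abundant, at 167 ± 42.4 TPM in fusion cells and 235 ± 3.73 TPM in empty vector cells (SD, n = 3 each, limma adjusted p = 0.0672). The other 2 were Kit, listed at 0 in all 6 libraries, and Cd34, averaging 0.493 TPM with the fusion and 0.407 TPM with the empty vector.

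Cytokines are secreted or membrane-bound signalling proteins, and chemokines are those that guide cell migration through G protein-coupled receptors. In blood cells their genes are commonly induced by NF-κB, AP-1 and STAT factors, and many of their mRNAs are short-lived because decay factors bind AU-rich elements in them. Among the 9, interleukin-23 subunit p19 (Il23a), oncostatin M (Osm), CSF1, TNF and TGF-β1 are ligands of different receptor systems. CCL3 and CCL4 are inflammatory chemokines. MIF is an abundant cytokine without a classical secretion signal, and CD74 is both the MHC class II invariant chain and a cell surface receptor for MIF.

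Promoter sequence was held for 5 of the 9 genes (Mif, Ccl3, Tnf, Tgfb1 and Csf1) in the RefSeq table of build GRCm38.p6, an earlier build than the GRCm39 named for the deposited files. The 250 bases upstream of the start site are shown, 5′ to 3′, for 3 of them. They are Mif, the gene with the largest difference between the groups, Ccl3, the most AT-rich of the 5 promoters, and Tnf, whose groups overlapped. Capitals mark matches on either strand to TATAAN (TATA box), TGANTCA (AP-1), TGACGTCA (cyclic AMP response element), TTCNNNGAA (STAT), GGGA and CC separated by any 4 bases (NF-κB) or GGGCGG (GC box).
Mif, chr10:75860278-75860527, minus strand: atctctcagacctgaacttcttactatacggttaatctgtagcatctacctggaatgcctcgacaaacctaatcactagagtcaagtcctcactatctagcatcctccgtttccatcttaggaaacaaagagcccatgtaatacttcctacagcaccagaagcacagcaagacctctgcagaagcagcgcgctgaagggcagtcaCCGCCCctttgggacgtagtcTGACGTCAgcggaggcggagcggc
Ccl3, chr11:83649379-83649628, minus strand: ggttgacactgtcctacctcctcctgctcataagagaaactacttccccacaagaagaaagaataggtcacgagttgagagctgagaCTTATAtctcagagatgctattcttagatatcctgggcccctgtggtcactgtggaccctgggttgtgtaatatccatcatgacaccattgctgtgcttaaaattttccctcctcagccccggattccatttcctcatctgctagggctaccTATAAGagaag
Tnf, chr17:35202008-35202257, minus strand: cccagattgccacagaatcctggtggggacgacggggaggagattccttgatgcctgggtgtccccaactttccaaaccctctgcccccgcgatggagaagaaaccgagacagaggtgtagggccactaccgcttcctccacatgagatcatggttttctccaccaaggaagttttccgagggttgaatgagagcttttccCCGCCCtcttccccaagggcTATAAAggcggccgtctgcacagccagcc
The Mif promoter held the cyclic AMP response element at -24 to -17 from the start, a motif present in 1.55% of the 32851 promoters in the table. A GC box was present in 4 of the 5 promoters, Ccl3 being the exception, and in 32.7% of all promoters. The Ccl3 and Tnf promoters each held a TATA box within 30 bases of the start in the gene's own direction, at -11 to -6 and at -29 to -24, and 22.7% of all promoters held this motif somewhere. The NF-κB pattern matched in the Csf1 and Tgfb1 windows and in 17.6% of all promoters. The AP-1 and STAT patterns matched in 0 of the 5, against 6.75% and 7.02% of all promoters. The GC content of the windows was 46.8% for Ccl3, 51.2% for Mif, 56.4% for Csf1, 57.6% for Tnf and 75.2% for Tgfb1, beside a median of 52.4% over all promoters.

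In the fusion cells, 7 of the 9 genes were lower in every library than in any empty vector library: Il23a, Mif, Cd74, Ccl3, Ccl4, Osm and Csf1. The 2 genes whose groups overlapped were Tnf and Tgfb1. Across the transcriptome, 20.8% of the 12862 tested genes were lower in every fusion library and 22.6% were higher in every fusion library. In the limma fit across all tested genes, 6 of the 8 members above 1 TPM had an adjusted p under 0.05, all lower with the fusion, beside 10.0% of tested genes called lower and 10.2% called higher (20.2% in all). Since the genes were chosen with these values known, nothing is read from their count. Each of the 8 had a mean above 1 TPM in both groups, and their median log2 fold change was -0.51, beside 0.02 over all tested genes. After the GC and length correction described below, the median of the members was -0.30. Nothing is read from these medians either, since the genes were chosen by such differences.

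**Figure D1:**
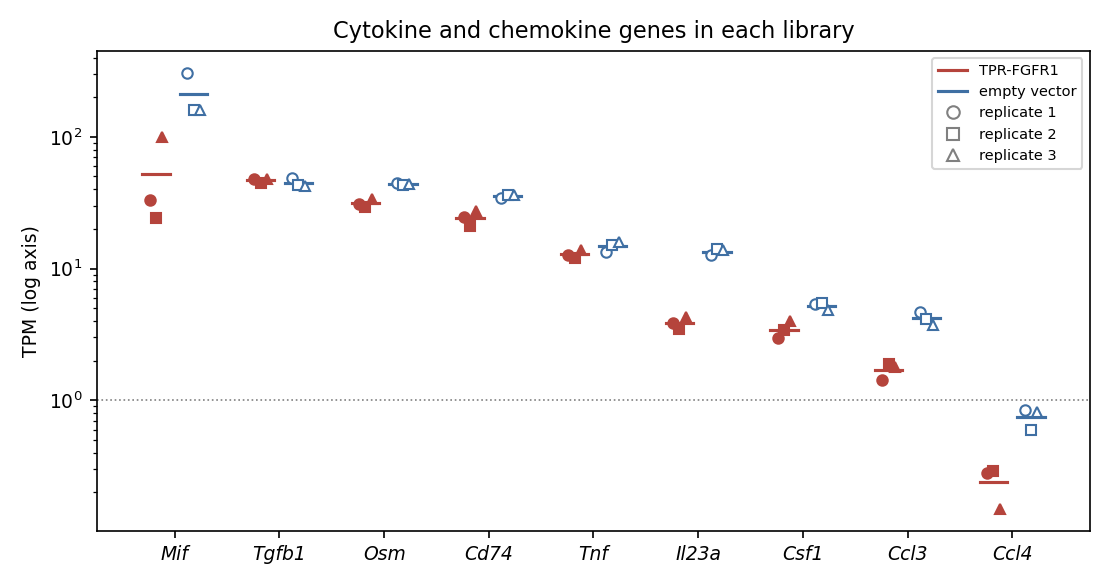
TPM of the 9 genes in each library on a log axis, with TPR-FGFR1 (filled) left of empty vector (open) for each gene, symbols for the replicate numbers, short lines at the group means and a dotted line at 1 TPM. Mif spread over 24.07 to 99.98 TPM in fusion libraries and 160.96 to 307.49 TPM in empty vector libraries, and Ccl4, the lowest gene, over 0.15 to 0.29 TPM in fusion libraries and 0.59 to 0.84 TPM in empty vector libraries. The other 7 genes had coefficients of variation of at most 14.84% in either group.

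Among the interleukins and their kin, Il23a encodes p19, which pairs with the p40 subunit (Il12b) to form interleukin-23. Il23a (ENSMUSG00000025383) stood at 3.86, 3.50 and 4.29 TPM in fusion replicates 1, 2 and 3, against 12.58, 13.98 and 13.75 TPM in the empty vector replicates. All fusion libraries lay well below all empty vector libraries, with little spread within either group. The mean was 3.88 ± 0.396 TPM with the fusion and 13.4 ± 0.751 TPM with the empty vector (SD, n = 3 each), a ratio of 0.289 and a log2 fold change of -1.57 (SE 0.103). Il12b, the partner gene, was listed at 0 TPM in all 6 libraries, as was the receptor gene Il23r.

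Osm encodes oncostatin M, a cytokine of the interleukin-6 family. It stood at 31.05, 29.54 and 33.59 TPM in fusion libraries and at 44.48, 43.44 and 44.20 TPM in empty vector libraries. The empty vector values were within a coefficient of variation of 1.22%, the smallest of the 9 genes, and the groups did not overlap. The ratio of the Osm means was 0.713 and the log2 fold change -0.48 (SE 0.0766). Lif, the next gene after Osm in the RefSeq order and a cytokine of the same family, was at 32.5 ± 2.76 TPM with the fusion and 34.7 ± 0.451 TPM with the empty vector (SD, n = 3 each, log2 fold change -0.09, limma adjusted p = 0.429). Castor1 on the other side of Osm also did not pass the test (log2 fold change 0.19, limma adjusted p = 0.523). Whether the difference of Osm differed from that of Lif was not tested.

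Csf1 encodes the growth factor of macrophages. Csf1 stood at 2.95, 3.41 and 3.97 TPM in fusion libraries, against 5.37, 5.44 and 4.89 TPM in empty vector libraries. The groups did not overlap, but the highest fusion library, replicate 3, came within 1 TPM of the lowest empty vector library. The ratio of means was 0.658 and the log2 fold change -0.49 (SE 0.124). Its receptor gene Csf1r was at or below 0.03 TPM in fusion libraries and at 0.06 to 0.08 TPM in empty vector libraries.

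The chemokine genes Ccl3 and Ccl4 encode inflammatory chemoattractants, and CCL3 binds the receptor CCR1. Ccl3 stood at 1.42, 1.90 and 1.80 TPM in fusion libraries and at 4.68, 4.16 and 3.70 TPM in empty vector libraries. Fusion libraries held less than any empty vector library, with a ratio of means of 0.408 and a log2 fold change of -0.94 (SE 0.140). Ccl4 was under the level used for testing, at 0.28, 0.29 and 0.15 TPM in fusion libraries and 0.84, 0.59 and 0.81 TPM in empty vector libraries, a ratio of means of 0.321. Tested with no level filter, Ccl4 was called lower. In the RefSeq order Ccl4 follows Ccl3, and the RefSeq models of the 2 genes overlap, whereas the GENCODE M21 models do not. No source used here gives the annotation or strand setting behind the deposited values, so reads of the 2 genes may not be fully separated. Ccl6, on the other side of Ccl3, averaged 0.720 TPM with the fusion and 0.847 TPM with the empty vector.

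Tnf encodes a membrane-bound cytokine that is released by cleavage. Tnf stood at 12.65, 12.07 and 13.75 TPM in fusion libraries and at 13.27, 15.02 and 15.91 TPM in empty vector libraries. The groups overlapped through fusion replicate 3 and empty vector replicate 1. The ratio of means was 0.870 and the log2 fold change -0.19 (SE 0.0987). The flanking gene Ltb, which encodes lymphotoxin beta and lies next to Tnf in the RefSeq order, was lower in every fusion library. Ltb stood at 16.61, 13.57 and 29.35 TPM in fusion libraries and at 54.24, 53.07 and 50.34 TPM in empty vector libraries (log2 fold change -1.43, SE 0.251, limma adjusted p = 0.0146). That call was lost in 4 of 21 alternative settings, all 4 of them leaving out a library. Ltb had a GC content of 61.0%. After the GC and length correction described below, its log2 fold change was -0.96, beside -0.12 for Tnf. Lta, the flanking gene on the other side, averaged 0.403 TPM with the fusion and 0.370 TPM with the empty vector.

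Tgfb1 encodes a latent cytokine that restrains the growth of many blood cells. It stood at 48.06, 44.89 and 47.44 TPM in fusion libraries, against 48.81, 42.88 and 42.26 TPM in empty vector libraries. The groups overlapped, and Tgfb1 was the only one of the 8 with a positive log2 fold change (0.07, SE 0.0838). Its value stayed between 0.03 and 0.21 over the 21 alternative settings.

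Mif and Cd74 encode a ligand and its receptor. Mif (ENSMUSG00000033307) stood at 33.22, 24.07 and 99.98 TPM in fusion libraries and at 307.49, 160.96 and 161.14 TPM in empty vector libraries. All fusion libraries were below all empty vector libraries, but Mif was also the most variable of the 9, with a coefficient of variation of 79.1% in fusion cells and 40.3% in empty vector cells. Fusion replicate 3 held 3.49 times the mean of fusion replicates 1 and 2, where this ratio ran from 0.526 (Ccl4) to 1.25 (Csf1) for the other 8 genes. The Mif pseudogenes Mif-ps3 and Mif-ps7 were listed at 0 in all 6 libraries, and reads shared between such copies and Mif cannot be told apart in these values. The ratio of Mif group means was 0.250 and the log2 fold change -2.18 (SE 0.522), and without fusion replicate 3 it was -2.78.

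Ddt, which encodes D-dopachrome tautomerase, a MIF-like protein, divided the fusion libraries in the same way. It stood at 18.34, 17.00 and 38.78 TPM in fusion libraries and at 37.70, 38.48 and 35.67 TPM in empty vector libraries. Fusion replicate 3 was above every empty vector library, and fusion replicates 1 and 2 were below all of them. The difference did not pass the test (log2 fold change -0.67, limma adjusted p = 0.130), and passed it without fusion replicate 3 (-1.04, limma adjusted p = 0.00065).

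Cd74 stood at 24.48, 21.14 and 27.17 TPM in fusion libraries and at 34.30, 35.91 and 36.17 TPM in empty vector libraries. The groups did not overlap, with a ratio of means of 0.684 and a log2 fold change of -0.54 (SE 0.103). The classical MHC class II genes that CD74 escorts were near 0, with H2-Ab1 listed at 0 in all 6 libraries, H2-Aa at most 0.19 TPM and H2-Eb1 at most 0.20 TPM. Their activator gene Ciita averaged 0.110 TPM with the fusion and 0.0867 TPM with the empty vector.

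**Figure D2:**
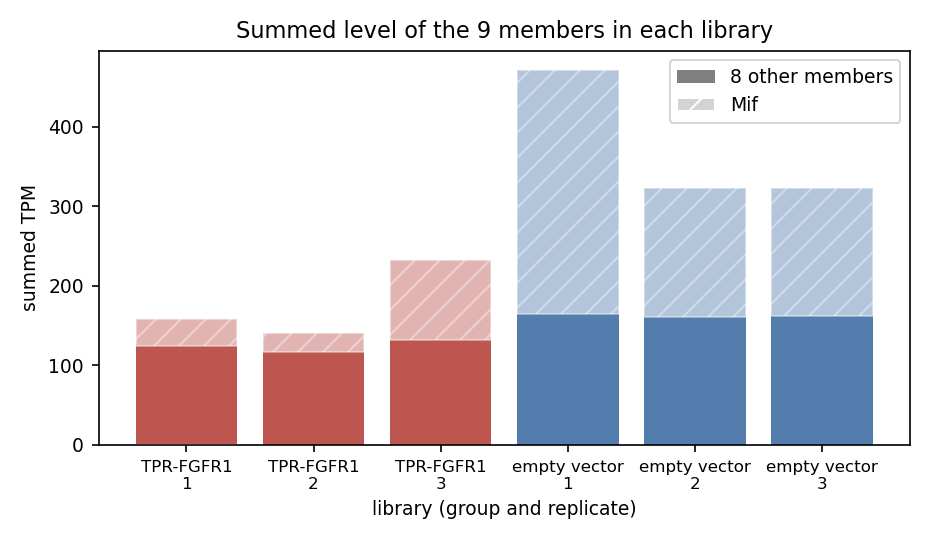
Summed TPM of the 9 genes in each library, TPR-FGFR1 libraries left of empty vector libraries, with the share of Mif hatched above that of the other 8 genes. The sum without Mif lay between 116.7 and 132.2 TPM in fusion libraries and between 161.4 and 164.3 TPM in empty vector libraries.

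By mean level the 9 genes had the same order in both groups, but the place of Mif in fusion cells rested on replicate 3. Without that library the fusion mean of Mif was 28.6 TPM in place of 52.4 TPM, below the means of Tgfb1 (46.5 TPM) and Osm (30.3 TPM). The fusion range of Mif (24.07 to 99.98 TPM) overlapped those of Tgfb1, Osm and Cd74. Among the other genes of fusion cells, Tgfb1 was above Osm, Osm above Cd74 and Cd74 above Tnf without overlap, Il23a and Csf1 overlapped below them, and Ccl3 and Ccl4 came last. In empty vector cells Mif was above all others, Tgfb1 and Osm overlapped next, Cd74 followed, Tnf and Il23a overlapped (13.27 to 15.91 and 12.58 to 13.98 TPM), and Csf1, Ccl3 and Ccl4 came last. By mean level, Il23a stood above 20.4% of tested genes in fusion cells and above 44.6% in empty vector cells. Mif stood above 81.2% in fusion cells and above 96.6% in empty vector cells. Summed over the 9 genes, the level was 158, 140.8 and 232.1 TPM in fusion libraries and 471.8, 322.4 and 322.8 TPM in empty vector libraries. Mif made up 21.03%, 17.09% and 43.07% of that sum in fusion libraries and 65.17%, 49.93% and 49.91% in empty vector libraries.

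The members differed in GC content, and the difference between the groups followed GC content across all tested genes. When genes were split into 5 equal bins by GC content of the longest transcript, the median log2 fold change was -0.35 in the highest bin, which held Mif (63.5% GC) and Cd74 (56.6%), and 21.8% of its genes were called lower. In the next bin, which held Il23a, Osm, Csf1, Tnf and Tgfb1 (51.0% to 54.4%), the median was -0.10 and 13.2% were called lower. Ccl3 (46.2%) lay in the second lowest bin, with a median of 0.14 and 4.35% called lower. Relative to the empty vector mean, the median of the highest bin was -0.42 and -0.56 in fusion replicates 1 and 2, whereas fusion replicate 3 was at -0.07. The correlation of fusion replicate 3 across tested genes was 0.9635 and 0.9620 with the other fusion libraries, against 0.9657 to 0.9661 with those of the empty vector. The part of this in the members' differences was not tested.

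**Figure D3:**
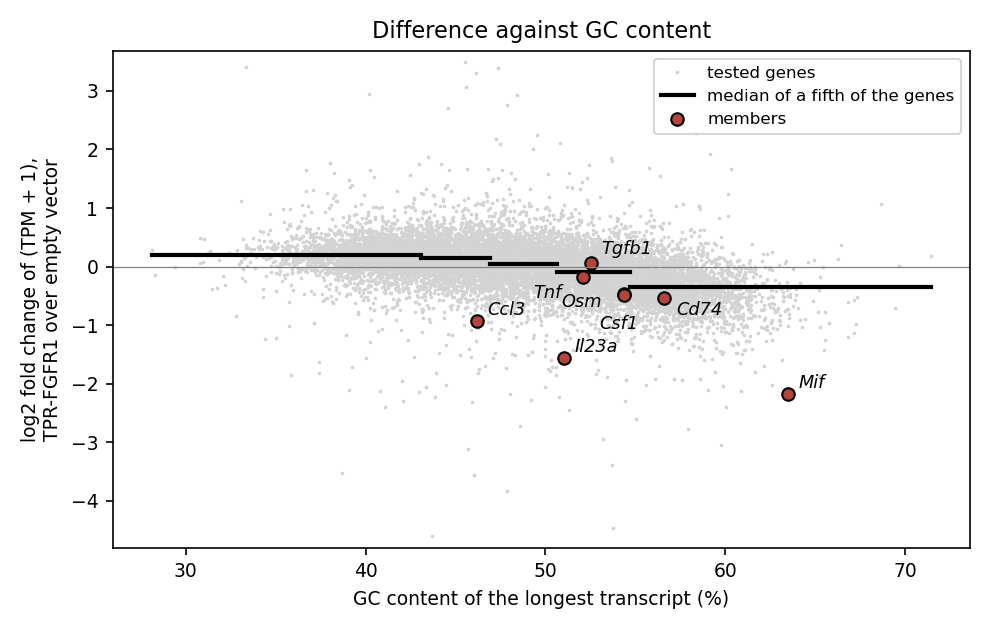
Log2 fold change of (TPM + 1), TPR-FGFR1 over empty vector, against GC content of the longest transcript for the tested genes with a GC value (grey), with the 8 members in red and black bars at the median of each of 5 equal bins. The bin medians run from 0.19 at low GC content to -0.35 at high GC content, and Ccl3, Il23a and Mif lie far below them.

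After removal of GC and length trends from each library, the log2 fold changes were -1.55 for Il23a, -1.59 for Mif and -1.08 for Ccl3. For Osm, Csf1 and Cd74 they were -0.29, -0.32 and -0.26. Cd74 was then no longer called, while the other 5 were, beside 16.1% of genes called lower in that fit. The correction also removes any difference between the groups that happens to follow GC content. Without fusion replicate 3, the same 6 members were called, beside 23.4% of genes called lower. Fewer were called without any other library: 1 without fusion replicate 1, 4 without fusion replicate 2, and 1, 1 and 2 without empty vector replicates 1, 2 and 3. Calls over all tested genes fell as well. Of these, 1291 were called lower with all libraries, against 170 and 443 without fusion replicates 1 and 2. Without empty vector replicates 1, 2 and 3 the counts were 213, 109 and 134. Il23a was called in all 21 alternative settings and was the 1 member called without fusion replicate 1 and without empty vector replicates 1 and 2. As the members were chosen with these values known and the settings share the same libraries, nothing is read from these calls.

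**Figure D4:**
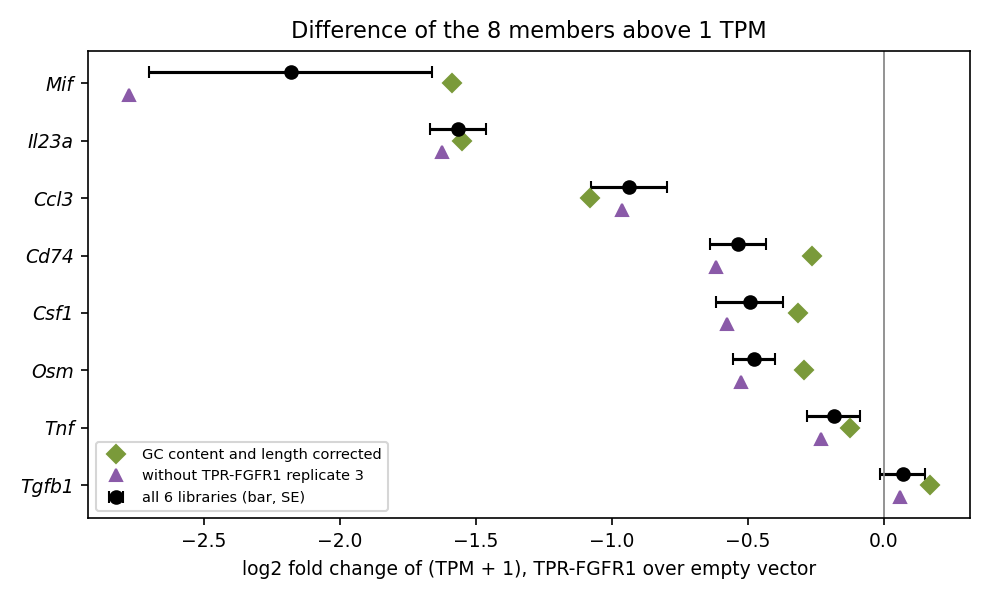
Log2 fold change of (TPM + 1), TPR-FGFR1 over empty vector, for the 8 members above 1 TPM, from the fit of all 6 libraries (black, bars SE), after correction for GC content and length (green), and without TPR-FGFR1 replicate 3 (purple). Il23a moved little between the fits, at -1.57, -1.55 and -1.63, whereas Mif ran from -2.78 to -1.59.

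Other ligand genes of these cells also stood at levels like those of the members. Of 48 other interleukin and haematopoietic cytokine genes, 12 were tested, of which 0 rose and 2 fell. Beside this count and those below stand the shares over all tested genes, 10.2% called higher and 10.0% lower. Flt3l, the FLT3 ligand gene, fell to 55.9 ± 3.74 TPM in fusion cells, against 74.1 ± 2.83 TPM in empty vector cells (SD, n = 3 each, log2 fold change -0.40, limma adjusted p = 0.0195). Il16 fell by 0.48 on the log2 scale (limma adjusted p = 0.0238). Il6 stood at 37.3 ± 4.78 TPM in fusion cells and 35.4 ± 0.667 TPM in empty vector cells, without passing the test (limma adjusted p = 0.671). Of 35 other chemokine genes, 8 were tested and 1 fell: Pf4, which encodes platelet factor 4, at 11.7 ± 2.26 TPM with the fusion and 20.5 ± 2.37 TPM with the empty vector (log2 fold change -0.77, limma adjusted p = 0.0206). Ccl25, the highest of them, stood at 40.4 ± 1.85 and 39.1 ± 5.98 TPM (limma adjusted p = 0.754). Of 16 other TNF superfamily ligands, 6 were tested and Ltb alone passed the test. Of 26 other TGF-β family ligands, 5 were tested and 1 fell, Inhbe, an activin subunit gene, at 0.653 TPM with the fusion and 1.53 TPM with the empty vector (limma adjusted p = 0.0381), which passed the level filter only through the empty vector group. The calls of Flt3l, Il16 and Pf4 were lost in 6, 8 and 5 of 21 alternative settings, and that of Inhbe in 7 of 19. The median log2 fold changes of these 4 lists were -0.16, -0.00, 0.03 and -0.30, beside 0.02 over all tested genes.

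Receptor genes of the ligands among the 9 genes were measured in the same libraries. Of 18 receptor genes, 9 were tested, 0 rose and 1 fell, beside 10.2% and 10.0% of all tested genes. Cxcr4, which encodes a chemokine receptor that also binds MIF, stood at 7.50, 7.16 and 6.06 TPM in fusion libraries and at 11.46, 10.72 and 11.19 TPM in empty vector libraries. It was lower in every fusion library (log2 fold change -0.62, SE 0.102, limma adjusted p = 0.0127). That call was lost in 3 of 21 alternative settings. Cd44, whose product signals together with CD74, was higher in every fusion library, at 52.3 ± 5.06 TPM with the fusion and 42.6 ± 1.93 TPM with the empty vector. The chemokine receptor gene Cxcr2 was also higher in every fusion library. It stood at 5.05, 4.97 and 4.03 TPM in fusion libraries and at 3.25, 3.98 and 3.82 TPM in empty vector libraries. Neither Cd44 nor Cxcr2 passed the test (limma adjusted p = 0.0691 and 0.154), and both passed it without fusion replicate 3. The TNF receptor genes Tnfrsf1a and Tnfrsf1b and the TGF-β receptor genes Tgfbr1 and Tgfbr2 had log2 fold changes of -0.29, -0.10, -0.12 and -0.28, and none of these 4 passed the test. Without fusion replicate 3, Tnfrsf1a and Tgfbr2 were called lower (limma adjusted p = 0.00370 and 0.0274), and after the GC and length correction Tgfbr1 and Tgfbr2 were (limma adjusted p = 0.0159 and 0.0303). For oncostatin M, Osmr and Lifr were at most 0.02 TPM and Il6st, the shared signalling chain gp130, was listed at 0 in all 6 libraries. Ccr1 stood at 1.88 ± 0.393 TPM with the fusion and 1.54 ± 0.435 TPM with the empty vector (limma adjusted p = 0.486).

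Of 20 genes for release or latency of the ligands, 12 were tested. Of these, 1 rose and 2 fell, beside 10.2% and 10.0% of all tested genes. The protease gene Adam10 rose to 119 ± 16.9 TPM with the fusion, against 87.7 ± 5.29 TPM with the empty vector (SD, n = 3 each, limma adjusted p = 0.0458). That call was lost in 9 of 21 alternative settings, 5 of them leaving out a library. Adam17, the gene of the protease that releases TNF, stood at 26.1 ± 2.33 and 24.5 ± 0.513 TPM in the same order (limma adjusted p = 0.488). Ltbp4, which encodes a latent TGF-β binding protein, fell by 1.06 on the log2 scale (limma adjusted p = 0.0122), a call lost after correction for GC content and length. Cops5, whose product binds MIF inside cells, fell to 78.6 ± 1.12 TPM with the fusion, against 102 ± 2.30 TPM with the empty vector (limma adjusted p = 0.0144). Of 13 MHC class II partners of CD74, 8 were tested, 1 rose and 0 fell, beside the same shares of all tested genes. H2-Ob, a subunit of the peptide-editing inhibitor H2-O, rose to 80.7 ± 3.74 TPM with the fusion, against 62.6 ± 3.38 TPM with the empty vector (limma adjusted p = 0.0241). Over the alternative settings, the calls of Ltbp4, Cops5 and H2-Ob were lost in 6 of 20, 5 of 21 and 8 of 21. The median log2 fold changes of the receptor, release and MHC class II lists were -0.12, -0.22 and -0.10.

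Of 17 genes for the decay or stability of cytokine mRNAs, all 17 were tested. Of these, 2 rose and 3 fell, beside 10.2% and 10.0% of all tested genes. The median log2 fold change of the 17 was 0.01. Arid5a, whose product stabilises cytokine mRNAs, was the most changed, at 5.06, 4.29 and 6.69 TPM in fusion libraries and 14.96, 11.81 and 10.91 TPM in empty vector libraries. The groups did not overlap (log2 fold change -1.10, SE 0.173, limma adjusted p = 0.0117). Hnrnpd and Khsrp, which encode AU-rich element binding proteins, fell by 0.41 and 0.64 on the log2 scale (limma adjusted p = 0.0250 and 0.0258). Cnot7, a deadenylase gene, and Tial1 rose by 0.39 and 0.40 on the log2 scale (limma adjusted p = 0.0358 and 0.0455). The calls of Arid5a, Hnrnpd, Khsrp, Cnot7 and Tial1 were lost in 3, 6, 7, 9 and 9 of 21 alternative settings. Zfp36, which encodes tristetraprolin, a decay factor of Tnf mRNA, stood at 10.6 ± 0.992 TPM with the fusion and 13.7 ± 1.35 TPM with the empty vector (limma adjusted p = 0.0636).

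**Figure D5:**
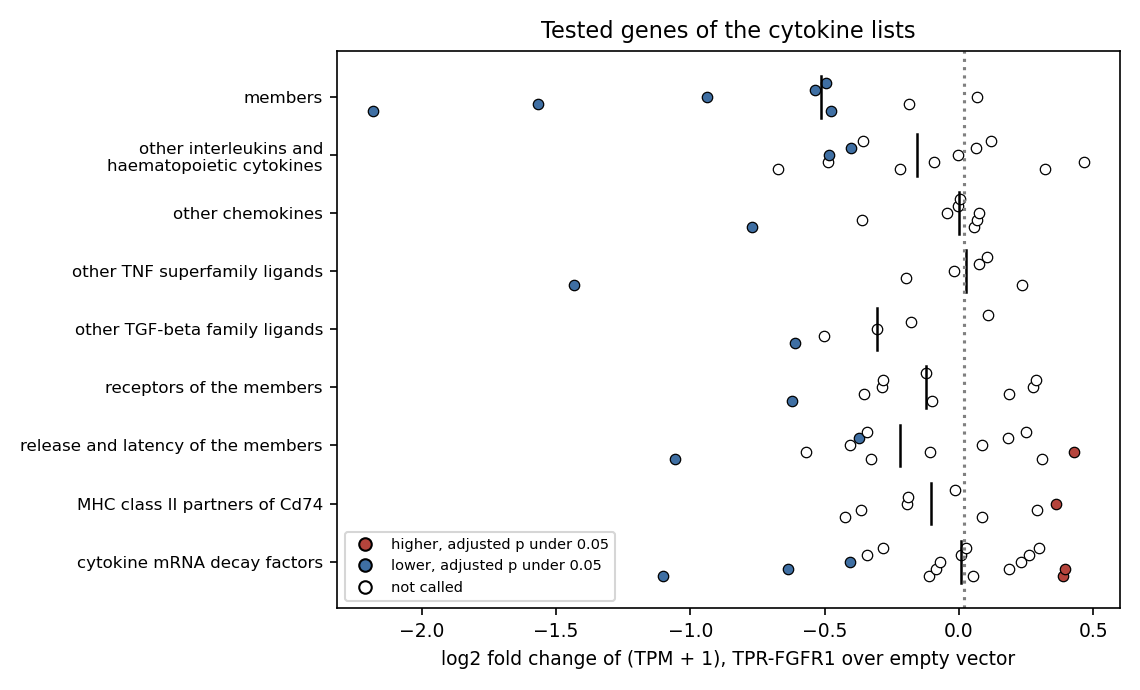
Log2 fold change of (TPM + 1), TPR-FGFR1 over empty vector, of each tested gene in the 9 members and in 8 lists around them, with calls filled (red higher, blue lower), list medians as black bars and the median of all tested genes as a dotted line. Calls lie on both sides for the release and decay lists, and the 1 MHC class II call is higher. Those of the ligand lists and of the receptors are all lower, with 1 or 2 calls in each list. Over all tested genes 10.2% were called higher and 10.0% lower.

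Over these 8 lists together, 4 of 77 tested genes rose and 11 fell, beside 10.2% called higher and 10.0% called lower over all tested genes. Without fusion replicates 1, 2 and 3 in turn, 2, 7 and 28 genes were called lower and 0, 0 and 14 higher. Without fusion replicates 1 and 2, 170 and 443 of all tested genes were called lower, and 137 and 426 higher. Without fusion replicate 3, 23.4% of all tested genes were called lower and 26.3% higher. Without empty vector replicates 1, 2 and 3 in turn, 0, 0 and 1 of the listed genes were called lower and 0 higher each time. Over all tested genes the counts were then 213, 109 and 134 lower, and 193, 111 and 148 higher. Of 8 progenitor markers, 6 were tested and 4 of these fell, beside the same 10.0% of all tested genes. The 4 were Lyl1, Il3ra, Myb and Csf2rb2, with log2 fold changes of -2.02, -1.32, -0.56 and -0.32. After the GC and length correction these were -1.46, -0.84, -0.67 and -0.20. From 0 to 6 progenitor markers were called lower when single libraries were left out. The 8 markers had a summed level of 436 to 624 TPM in fusion libraries and 764 to 786 TPM in empty vector libraries. The defining marker Kit was listed at 0 in all 6 libraries. Of 7 macrophage markers, 3 were tested and 1 fell, the lysozyme gene Lyz2, at 2.04 ± 0.349 TPM with the fusion and 3.56 ± 0.387 TPM with the empty vector (limma adjusted p = 0.0329). The 7 summed to 68.1 to 75.4 TPM in fusion libraries and 63.7 to 71.3 TPM in empty vector libraries, mostly from Adgre1 and Cd68, which did not pass the test. The part of such marker differences in the cytokine values was not tested, and fewer cells of a type and less RNA per cell cannot be told apart in bulk RNA.

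The patterns of the members over the 6 libraries were also compared with those of the other tested protein-coding genes averaging 5 TPM or more (8649 or 8650), by Pearson's r of log2(TPM + 1). With 6 libraries in 2 groups, any gene with a like difference between the groups scores highly, and the values are a description. The genes most like Il23a were Rgs19 (r = 0.999) and Greb1 (r = 0.998), and those most like Osm were Cic and Padi4 (r = 0.998 each). Cd74 was most like Mmab (r = 0.999) and Slc7a5 (r = 0.998). Mif was most like Trim8 and Wbp1l (r = 0.998 each), Ccl3 most like Dnph1 and Gnptg (r = 0.995 each), and Csf1 most like Pih1d1 (r = 0.995) and Hdac4 (r = 0.994). Tnf was most like Stoml2 (r = 0.997) and Eef1akmt4 (r = 0.995). The highest values were lowest for Tgfb1, at 0.976 for Slc25a51 and 0.975 for Ralb.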

How the data were processed

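The 6 libraries (3 per group) were stranded mRNA preparations of 1 µg RNA read from both ends, per the labels' protocols. The authors deposited TPM values per Ensembl gene, and each column sums to 1e+06 within rounding. The tools fastp, HISAT2 and StringTie and the build GRCm39 are named, per the submitters' processing notes. Their versions, the annotation and the strand setting were not stated. Without depth, no counting interval was computed.

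Columns were matched to samples by name (EV for empty vector, OE for overexpression), with 0 columns of other samples. GENCODE M21 (GRCm38) gave symbols for 52081 IDs (91.4%), biotypes, and transcript length and GC content (longest model). The fit used log2(TPM + 1) of the 12862 genes averaging 1 TPM or more, a scale that understates the change of low genes. limma 3.58.1 in R 4.3.3 compared the groups (lmFit, eBayes with trend, group as the only term). P-values were adjusted by Benjamini-Hochberg over all tested genes, and a gene was called under 0.05. When a library was left out, the level filter was applied again to the remaining ones. The GC correction removed from each library a spline trend (4 degrees of freedom each for GC content and log length), and 321 tested genes lacking GC content could not enter it. The script was tested on simulated data.

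The members and the lists were chosen with earlier results of these data known. Named genes were all members and, for each list, the called genes (up to 6) and the 4 of highest level, any receptor or MHC class II partner, and for each tested member the 2 protein-coding genes most like it (Gm and Rik names left out). Gata2, Lyl1, Il3ra, Myb, Csf2rb2, Cd34, Cd79a, Cd79b, Cd37, Kit, Lyz2, Adgre1, Cd68, Il12b, Adam17 and Zfp36 fall outside that rule and were named after their values were seen. The same holds for Fgfr1, the Mif pseudogenes and the flanking genes Castor1, Ccl6 and Lta (RefSeq order on GRCm38.p6). The alternatives were pseudocounts of 0.1 and 5, other filters, 3 scalings, other variance models, library weights, the replicate number as a block, protein-coding genes alone, the GC correction and leaving out each library. The GC correction without fusion replicate 3 was chosen after the data were seen. Whether the numbers in the labels pair the libraries is not stated.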

Additional observations from a re-analysis of the deposited data

How the results depend on the processing

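The 8 tested members kept their direction in all 166 values from 21 alternative settings (20 for Ccl3 and Csf1, which a filter at 5 TPM removes). A call was lost in 33 of these values and gained in 2, both with library weights. Ccl4, under the level filter, was called lower when no filter was used. The count of members called lower was 6 with all libraries and 3 with the replicate block, with and without the GC correction. It was 1 to 6 when single libraries were left out. Over all tested genes, 1291 were called lower with all libraries, 421 with the block, and 1011 with the block and the GC correction. Leaving out single libraries gave 109 to 3009 lower over all tested genes. With library weights 1 member, Tgfb1, was called higher, beside 5138 of all tested genes.

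For the other listed genes, 4 were called higher and 11 lower with all libraries, beside 1309 and 1291 of all tested genes. With median of ratios scaling and with quantile normalization 7 were higher, beside 1457 and 1748 of all tested genes. Without a filter 1 was higher and 7 lower. With eBayes without trend 1 was higher, beside 1159 of all tested genes. With library weights, whose estimation did not converge fully, 21 were higher and 32 lower, and Il15 (log2 fold change 0.18) and Ccl17 (-0.38) changed sign. With the replicate block 0 were higher and 5 lower, and with the block and the GC correction 2 were higher. With the GC correction and without fusion replicate 3, 8 were higher. Leaving out single libraries gave 0 to 14 higher and 0 to 28 lower.

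Over all tested genes, 1309 were called higher and 1291 lower. The counts were 620 and 526 without a filter, 5138 and 4143 with library weights, 343 and 421 with the replicate block, and 2001 and 2353 with the GC correction and without fusion replicate 3. With the GC correction 2018 were lower, and with the block added to it 765 were higher. Leaving out single libraries gave 111 to 3387 higher and 109 to 3009 lower. The cause of these shifts was not tested. The labels do not say whether the replicate numbers pair the libraries. Deviations from the group means correlated at -0.193, -0.0750 and -0.153 between same-numbered libraries. Those between differently numbered ones were higher (-0.0168 to 0.163). With 3 libraries per group such correlations constrain each other, so they cannot decide whether same-numbered libraries shared a culture or day. The reason for the smaller counts with the block was not tested. Depth is unknown, which leaves low genes such as Ccl4 without a counting error.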
